A study of Triticum aestivum with 6 samples.

Results

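Among the genes that separated leaves of ultrasound-treated wheat from untreated leaves were 8 genes that make chlorophyll or carry its binding proteins to the thylakoid membrane. They were 3 genes of glutamyl-tRNA reductase, 2 genes of magnesium-protoporphyrin IX monomethyl ester cyclase and 3 genes of the chloroplast signal recognition particle 43 kDa protein. They were taken from the 861 genes of the authors' deposited DESeq2 table by the wording of their descriptions, with the measured gene required to be the described gene. That table had been selected on its adjusted p-value (FDR, under 0.05), so the 8 were also chosen by the values given here. Those values are a description, and no test of them is made.

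The study grew seedlings of winter wheat (Triticum aestivum, breeding line SE15) from a seed lot split in 2 and sequenced leaf mRNA at day 7 after germination. The 3 ultrasound samples came from seeds sonicated once before germination, at 30 kHz and 70 W for 5 minutes with the ultrasound head 4 cm away. The 3 control samples came from seeds without ultrasound. All of them germinated in darkness at 20 °C, with 100 seeds per group and a seed water content of 13.6%. The labels call the samples independent biological samples but do not say whether they came from separate dishes. P-values, and the intervals derived from them, then speak for the spread between these samples, and part of that spread may be technical. Each group came from its own part of the split seed lot, so ultrasound cannot be told apart from another difference between the 2 parts. Variation between such parts does not enter the p-values, and separate sonication runs are not described. The deposited table gives 1 comparison between groups named K1 and US1, no value per sample and no statement of which samples entered, so depth and expression level are unknown and n was at most 3 per group. The table does not say which group was the numerator either. The sign is therefore kept as deposited: a gene is called positive or negative after its log2 fold change, and neither is read as higher after ultrasound.

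Chlorophyll synthesis in plants starts from glutamate bound to its transfer RNA. Glutamyl-tRNA reductase converts it to glutamate-1-semialdehyde, the committed step towards 5-aminolevulinic acid, and it is the step at which the flow into chlorophyll and heme is mainly controlled. Much later, after magnesium has been inserted, the cyclase closes the additional ring that distinguishes chlorophyll precursors from heme precursors and yields a protochlorophyllide. In flowering plants the reduction of protochlorophyllide needs light, so dark-grown seedlings pause there. The 43 kDa protein, cpSRP43, is a chaperone of the stroma. With its partner cpSRP54 it keeps newly imported chlorophyll a-b binding proteins soluble and hands them over at the thylakoid membrane to the receptor FtsY and the insertase ALB3. In Arabidopsis, cpSRP43 is also known to protect glutamyl-tRNA reductase from aggregation, which links the first and the last protein of the set.

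All 8 genes lay on the positive side. Their log2 fold changes ran from 1.28 to 2.82, with a median of 1.96 (3.88-fold). Of all listed genes 441 were positive and 420 negative, and the positive ones had a median of 1.90. The authors' calls covered 1.12% of the 76618 tests implied by their FDR values, and 0.576% on the positive side. Genes with a description of their own were positive in 70.3% of 232 cases. Since the rule drew the genes from this contrast, nothing is read from the count of 8. In leaf samples of this kind, a different share of cells with chloroplasts and a different amount of RNA per cell cannot be told apart.

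Glutamyl-tRNA reductase was listed from each subgenome (A, B and D) of hexaploid wheat. TraesCS1B02G075200 (chromosome 1B, 58321321 to 58325069, plus strand) had a log2 fold change of 2.82, a ratio of 7.07. The standard error (SE) implied by its p-value was 0.37, and its authors' DESeq2 FDR of 4.09e-10 was the ninth lowest by p-value in the table. TraesCS1D02G058300 (1D, 38549079 to 38552961, plus strand) had 2.07 (SE 0.41, 4.20-fold, DESeq2 FDR 0.00026). TraesCS1A02G057200 (1A, 37478206 to 37481881, plus strand) had 1.69 (SE 0.41, 3.24-fold, DESeq2 FDR 0.00843). The B copy thus had the largest fold of the 3 and of all 8 genes, and all 3 copies had an FDR under 0.01. The intervals overlapped, from 2.09 to 3.56 for 1B, from 1.27 to 2.87 for 1D and from 0.89 to 2.50 for 1A (95%).

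The cyclase was listed from the A and D subgenomes, and no listed gene on 3B carried its description. TraesCS3A02G191700 (3A, 244482474 to 244484829, plus strand) had a log2 fold change of 1.34 (SE 0.37, 2.53-fold, DESeq2 FDR 0.0326). TraesCS3D02G194300 (3D, 185332436 to 185334995, plus strand) had 1.28 (SE 0.36, 2.42-fold, DESeq2 FDR 0.0386). Both descriptions were projected from the Arabidopsis gene AT3G56940. The cyclase genes had the smallest folds of the set, and they lay nearest to the threshold of 0.05. The last gene in the table had an FDR of 0.0499, and genes beyond it are not analysed here. Whether a B copy of the cyclase is among them is unknown. Of 37 listed genes on 3B, 30 had no description, so a listed but undescribed copy could not have been recognised.

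The cpSRP43 gene was listed on 4B, 4D and 5A, with no copy described on 4A. Of 35 listed genes on 4A, 21 had no description, so a listed but undescribed copy there could not have been recognised. TraesCS4B02G326700 (4B, 617437269 to 617438450, minus strand) had the largest unshrunk log2 fold change of these, 2.17 (4.50-fold), but also the largest implied SE of the 8 genes, 0.56, and a DESeq2 FDR of 0.0173. TraesCS4D02G323400 (4D, 484724997 to 484726525, minus strand) had 2.14 (SE 0.40, 4.39-fold) and the second lowest FDR of the set, 8.47e-05 in the authors' DESeq2 table. TraesCS5A02G498700 (5A, 665766383 to 665767558, minus strand) had 1.84 (SE 0.44, 3.58-fold, DESeq2 FDR 0.00697). All 3 descriptions were projected from the Arabidopsis gene AT2G47450. As background, wheat carries an ancient exchange between the long arms of 4A and 5A. Whether the 5A gene lies in the exchanged segment was not tested. It lay towards the upper end of the coordinates listed on 5A, with 4 of the 65 listed genes of that chromosome beyond it.

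**Figure D1:**
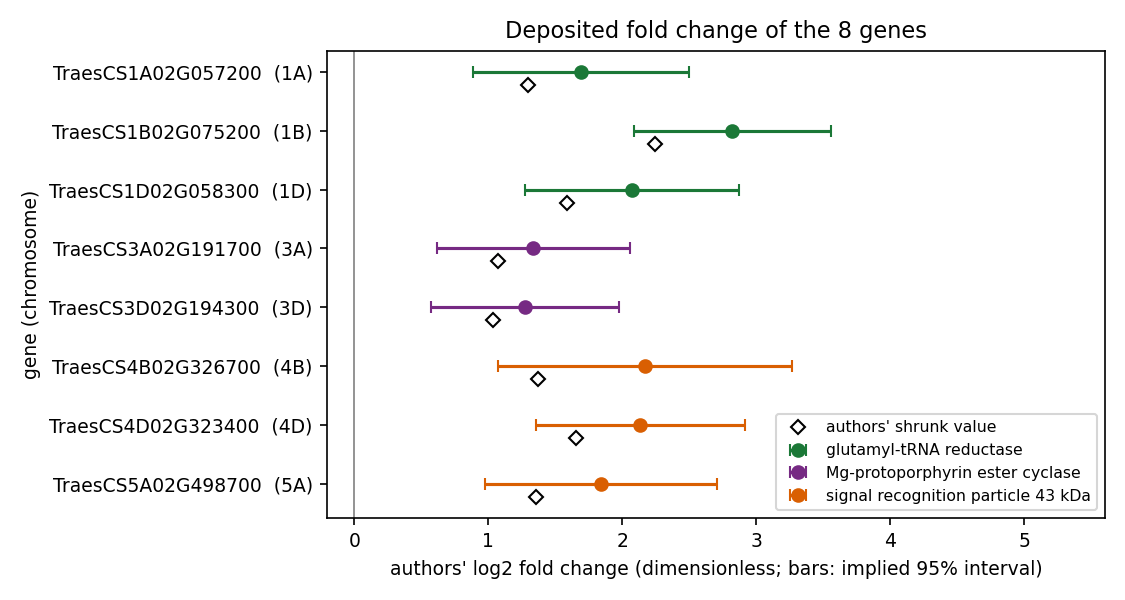
Authors' log2 fold change (x axis, sign as deposited) of the 8 genes (y axis, with chromosome). Filled points are unshrunk values with the 95% interval implied by the p-value, and open diamonds are the authors' shrunk values. All 8 lie to the right of 0, from 1.28 on 3D to 2.82 on 1B.

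The authors' shrinkage, which pulls imprecise folds towards 0, changed the order of the genes. Shrunk log2 fold changes were 2.24 for the 1B, 1.59 for the 1D and 1.29 for the 1A copy of glutamyl-tRNA reductase. They were 1.07 on 3A and 1.04 on 3D for the cyclase. For cpSRP43 they were 1.65 on 4D, 1.37 on 4B and 1.36 on 5A. The 4B gene kept 63.2% of its unshrunk value, whereas the other 7 kept 73.8% to 81.1%, so 4D and not 4B had the highest cpSRP43 value after shrinkage. By unshrunk fold the 1B reductase ranked 87 among the 441 positive genes, and by shrunk fold it ranked 11. The cyclases ranked 371 and 390 by shrunk fold, near the low end of the positive side.

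The copies were compared with each other through the difference of their log2 folds and an SE that takes the copies as independent, although all came from the same samples. Copies in wheat can be nearly identical in sequence, and how reads that match several copies were counted is not stated, so the split of a fold between copies is uncertain. There were 7 pairs. The 1B copy of the reductase exceeded the 1A copy by 1.13 (SE 0.56, 95% interval 0.04 to 2.22), a 2.18-fold larger ratio, and this was the only pair whose interval left out 0. It exceeded the 1D copy by 0.75 (interval -0.33 to 1.83), and 1D exceeded 1A by 0.38 (interval -0.76 to 1.51). The intervals are not adjusted for the 7 pairs and the genes were selected on these folds, so no call is made for the 1B copy.

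The cyclase copies on 3A and 3D lay 0.06 apart (interval -0.95 to 1.07). For cpSRP43 the 4B and 4D copies lay 0.04 apart (interval -1.31 to 1.38). The 4B copy exceeded the 5A copy by 0.33 (interval -1.07 to 1.73), and the 4D copy exceeded it by 0.29 (interval -0.87 to 1.46). These intervals span about a log2 unit or more on either side of 0, so they leave room for a ratio of 2 between the folds of copies and do not show that the copies act alike.

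**Figure D2:**
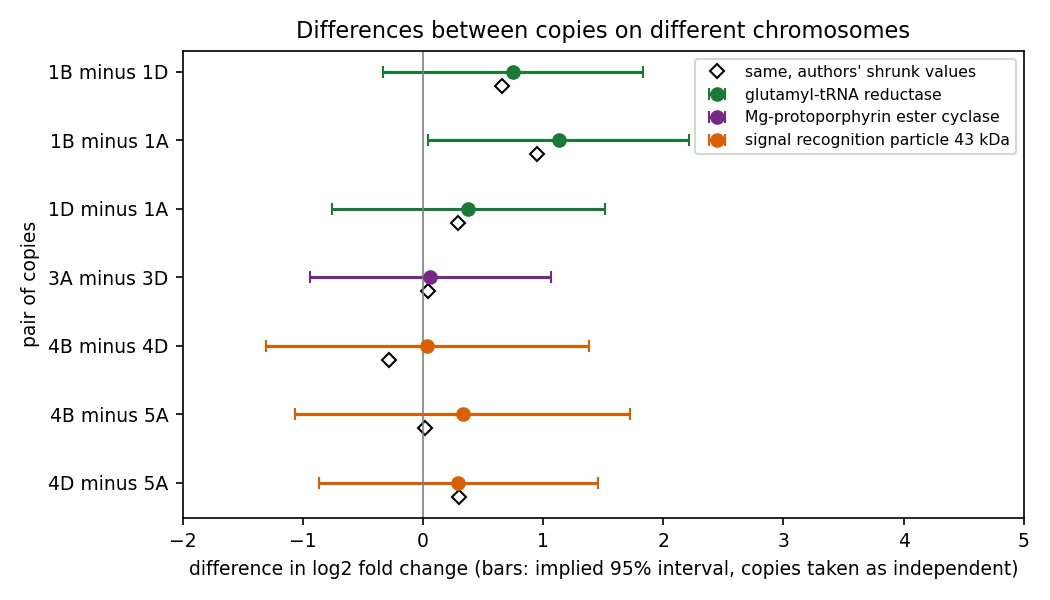
Difference in the authors' log2 fold change (x axis) for the 7 pairs of copies (y axis, named by chromosome), with 95% intervals that take the copies as independent. Open diamonds are the same differences in shrunk values. The bar for 1B minus 1A starts at 0.04, and the other 6 bars cross 0.

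Other described genes give a scale for such differences. Outside the 8 genes, 6 descriptions had exactly 1 listed gene per subgenome on 1 chromosome group, and in all 6 the copies lay on one side, with a median spread between the highest and lowest log2 fold of 0.90 and a range from 0.27 to 3.88. The reductase's spread of 1.13 was larger than that of 4 of the 6. A further 17 descriptions had exactly 2 such copies, on one side in 16 cases, with a median spread of 0.23. The cyclase's 0.06 was smaller than all but 4 of these 17, and the 0.04 between the 4B and 4D copies of cpSRP43 was smaller than all but 3. Those ranks are for unshrunk folds. In shrunk folds the 4D copy exceeded the 4B copy by 0.28, more than the spread of 14 of the 17 (median 0.14), while the cyclase's 0.04 was again smaller than all but 4. A shared description does not prove that such genes are copies of each other, and these counts are a description.

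The implied SE of the 8 genes ran from 0.36 to 0.44, apart from 0.56 for the 4B gene, with a median of 0.40, against a median of 0.46 and a range from 0.25 to 2.13 on the positive side of the table. Of the 8 genes 5 had an FDR under 0.01. On the positive side 38.3% of the listed genes, and 44.2% of those with a description of their own, did so too. Over all tests the share was 0.221%, but the 8 had already passed an FDR of 0.05. Nothing is therefore read from the count of 5. By position the copies of a family lay on the same chromosome group, apart from the cpSRP43 gene on 5A. The 8 genes thus lay on 8 chromosomes, 3 on A, 2 on B and 3 on D. The reductase and cyclase genes were on the plus strand and the cpSRP43 genes on the minus strand. The measured spans ran from 3676 to 3883 bases for the reductase and from 2356 to 2560 for the cyclase. For cpSRP43 they were 1176 on 5A and 1182 on 4B, but 1529 on 4D. The median over all listed genes was 1789. No listed gene overlapped any of the 8. Within 10 gene numbers of them lay only 2 listed genes, both without a description. TraesCS1B02G076100, 9 numbers beyond the 1B reductase, was negative at -2.20 (SE 0.49), and TraesCS1D02G059100, 8 numbers beyond the 1D reductase, was positive at 2.18 (SE 0.63).

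The rest of the chlorophyll pathway was thinly represented. No gene of the table was described as one of the early steps between glutamyl-tRNA reductase and protoporphyrin, and none belonged to the heme and bilin branch. In the chlorophyll branch the single listed gene besides the cyclases was divinyl chlorophyllide a 8-vinyl-reductase (TraesCS6D02G387300 on 6D), which reduces a vinyl side group of the pigment. Its log2 fold change was 1.25 (SE 0.36, DESeq2 FDR 0.0466), close to that of the cyclases. No listed gene in either deposited table was described as a protochlorophyllide reductase, the enzyme that needs light. Among genes of chlorophyll breakdown 1 was listed, a STAY-GREEN LIKE protein (TraesCS2D02G569700 on 2D) of a family that removes magnesium from chlorophyll, at 1.20 (SE 0.34, DESeq2 FDR 0.0464). With 72.0% of the table undescribed, genes without a match may still be present.

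In delivery to the thylakoid, cpSRP54, FtsY and ALB3 had no described gene in the table. The list held 1 further gene, a SecA subunit (TraesCS4D02G096200 on 4D), the motor of a separate protein export route. It lay on the negative side, at -1.50 (SE 0.42, DESeq2 FDR 0.0412). Its description does not say that it acts in the chloroplast.

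The cargo of cpSRP43, the chlorophyll a-b binding proteins, had 37 listed genes. All were positive, at log2 fold changes between 1.85 and 7.01 (median 2.63). The cyclase folds and the 1A and 5A values lay below that whole range, whereas the other 4 genes lay within it. The antenna gene with the lowest FDR, TraesCS5A02G454200 on 5A, had 6.18 (SE 0.54), and the one at the median, TraesCS2D02G209900 on 2D, had 2.63 (SE 0.40). Whether the antenna folds differ from those of the 8 genes was not tested, because both were selected on these folds.

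**Figure D3:**
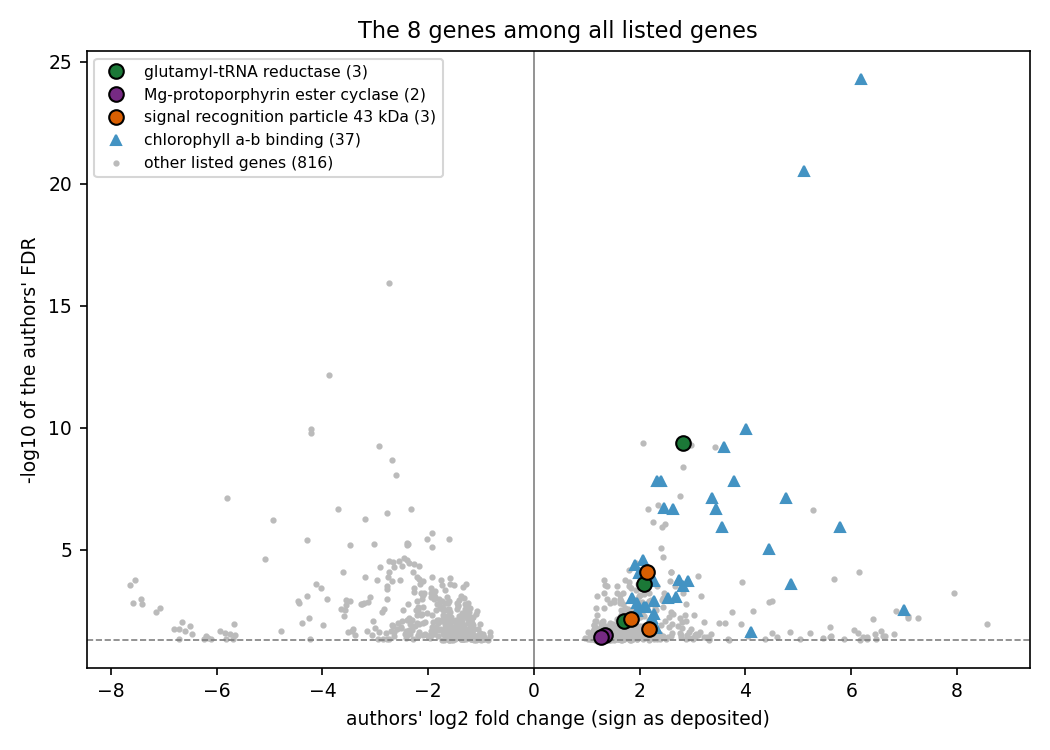
Authors' log2 fold change (x axis, sign as deposited) against -log10 of the authors' FDR (y axis) for all 861 listed genes. Large circles are the 8 genes, blue triangles the 37 chlorophyll a-b binding genes, grey dots the others and the dashed line an FDR of 0.05. The 1B reductase stands above the other 7 circles, and the cyclases sit just above the line.

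Photosystem and plastocyanin genes, whose proteins build or serve the electron transport chain of the thylakoid, numbered 6, all positive, with a median of 1.32. The largest fold was that of photosystem 1 subunit 5 (TraesCS5B02G256400, 2.00, SE 0.41, DESeq2 FDR 0.000715), which the keywords missed for its digit and which was added after its value was seen. The other 5 had a median of 1.28 and FDR values above 0.01. They included a photosystem I subunit VI (TraesCS1A02G392000, 1.64, SE 0.45), the photosystem II repair protein PSB27 (TraesCS4A02G134100, 1.21, SE 0.32) and a plastocyanin (TraesCS7A02G000400, 1.16, SE 0.32). Genes described as ferredoxin were not part of that list, and they lay on both sides. TraesCS3D02G366600 was negative at -2.56 (SE 0.46, DESeq2 FDR 3.02e-05). TraesCS5D02G516100 (1.02), TraesCS7A02G325500 (1.28) and TraesCS7B02G226100 (1.12) were positive. The single carotenoid gene, beta-carotene hydroxylase B2 (TraesCS4B02G318000), which makes a pigment that accompanies chlorophyll in the antenna, was negative at -1.60 (SE 0.43). No listed gene matched the keywords for light receptors or their signalling. Markers of leaf chloroplasts, here the antenna genes together with those for the small chain of the carbon-fixing enzyme Rubisco, numbered 46, all positive. Markers of seed remains and of root or coleoptile matched 0 genes in either table. They were sought by the wording of descriptions, which 72.0% of the first table lacked, so some may have been missed. The root wording included nitrate transporter, which a gene described as Protein NRT1/ PTR FAMILY 6.2 (TraesCS1A02G031300, 3.31) did not match. The part of tissue composition in the 8 values was not tested.

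None of the 8 genes was in the authors' second deposited table, which listed 52 genes by a Z-score of the difference between the same 2 groups. Its FDR values implied 120099 tests (32 of the 52 genes gave that number), so nothing is read from the absence of the 8. The smallest absolute Z-score in that table was 4.11. It held 20 chlorophyll a-b binding genes, with Z-scores from -10.02 to -4.12, and no gene of the chlorophyll synthesis, breakdown or delivery lists. The test behind that score and the direction of its sign are not stated.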

How the data were processed

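Leaf mRNA of 3 ultrasound and 3 control samples was enriched with poly-T beads and sequenced on an Illumina NovaSeq instrument, per the labels' protocols. Tools in the submitters' processing notes were STAR 2.7.10a, DESeq2 (the authors' version not stated), Trim Galore 0.6.7 and FastQC 0.11.9. Positions are as deposited. The sources used here do not state the genome build, the annotation or the strand setting. The deposited DESeq2 table holds the authors' p-value, FDR (adjusted p-value), unshrunk and shrunk log2 fold changes per gene. A second deposited table holds a p-value, an FDR and a score (Z-score). Neither holds values per sample, so no own test and no depth could be had.

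An implied SE was computed under the assumption of a Wald test, by dividing the size of the log2 fold change by the two-sided normal quantile of p, and 95% intervals follow from it. The number of tests was recovered as the commonest value of FDR times rank over p (336 of 861 genes gave 76618). Both steps were run on data simulated under the same assumptions. That checks the arithmetic and cannot check the assumptions for the deposited values. For 9 genes the description belonged to another gene and was not used. The RefSeq gene table matched 0 of the 8 identifiers. Genes and lists were chosen with earlier results of these data known. Named genes were the 8, up to 3 per list by lowest FDR (for the antenna, the lowest FDR and the median), and listed neighbours within 10 gene numbers. Python 3.11.15, pandas 2.3.3 and scipy 1.17.1 were used.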

Additional observations from a re-analysis of the deposited data

How the results depend on the processing

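Without the requirement that the described gene be the measured gene, the same 8 genes were found. At an FDR under 0.01, 5 genes were listed and 5 were positive, because the cyclases and the 4B gene have larger FDR values. In the second table, an alternative added after seeing the data, 0 were listed. The median log2 fold change of 1.96 became 1.37 with the authors' shrunk values and 1.89 as a precision-weighted mean. The spread between cpSRP43 copies was 0.04 for 4B and 4D alone and 0.33 with 5A. In shrunk values the 4B and 4D copies lay 0.28 apart in the opposite direction, with 4D higher. The unshrunk difference between 4B and 4D had an SE of 0.69. That SE does not measure a change of gene set or of estimator. Reading the p-values as one-sided gave a median implied SE of 0.41 in place of 0.40. Besides the 8 genes and the antenna genes, the pathway lists held 9 listed genes, and 0 at an FDR under 0.01. With the photosystem gene spelled with a digit, added after seeing the data, they held 10, and 1 at the stricter FDR. No paired analysis was possible because the deposited tables hold no values per sample, and leaving out replicates could not be run for the same reason. The unknown depth, the unknown sign and the missing genes beyond the threshold limit all values.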
